A study of Mus musculus with 9 samples.

Results

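The genes described here are the cyclins, CDK inhibitors and pocket protein that set the passage from G1 into S phase. They are the D-type cyclins Ccnd1, Ccnd2 and Ccnd3, the E-type cyclins Ccne1 and Ccne2, the CDK inhibitors Cdkn1b, Cdkn1c, Cdkn2a and Cdkn2c, and the retinoblastoma gene Rb1. These 10 genes, of 37316 named on the array, were taken by gene name, and all 18 of their non-control probes were read. Gene expression was measured in mature megakaryocytes (mMKs) from the bone marrow of male mice. The 3 groups were mice without irradiation (Ctrl), mice at 1 day post IR (1 dpi) and mice at 3 dpi, each with 3 arrays, and the dose was 5 Gy of gamma rays to the total body. The labels give no age, genotype or strain for these mice, and the methods name wild-type C57BL/6 mice for the control and IR groups of the study. The replicates were described as separate experiments with different donors. The mMKs were enriched by positive selection for CD41 and then for CD42d, both carried by cells of the megakaryocyte lineage, so that the samples were bulk RNA of an enriched population. In such samples, a change in the share of cells of a type and a change in RNA per cell cannot be told apart.

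D-type cyclins bind CDK4 and CDK6, and E-type cyclins bind CDK2. These kinases phosphorylate the retinoblastoma protein, which then releases E2F transcription factors and lets genes of DNA replication be transcribed. Inhibitors of the INK4 family (from Cdkn2a and Cdkn2c) act on CDK4 and CDK6, and inhibitors of the CIP/KIP family (p27 from Cdkn1b and p57 from Cdkn1c) act on cyclin-CDK complexes more broadly. Megakaryocytes pass through G1 and S phase repeatedly without dividing, which makes them polyploid, and cyclins of the D and E types are known for their part in this endomitotic cycle.

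Values are log2 spot intensities minus the 75th percentile of the same array, so that a difference of 1 is a 2-fold change. The share of spots well above background was 69.1% for Ctrl replicate 1, 79.5% and 80.8% for Ctrl replicates 2 and 3, 72.3% to 75.6% at 1 dpi and 81.6% to 81.8% at 3 dpi. Ctrl replicate 1 lay alone on slide 1 and all other arrays on slide 2. Its values differed from those of the other Ctrl arrays with an SD of 0.68 on the log2 scale over all genes, against 0.24 between Ctrl replicates 2 and 3. Of the 18 probes, 17 were well above background on all 9 arrays, and each of the 10 genes had at least 1 such probe. A second probe of Cdkn2a was not well above background on any array. The brightest probe stood for its gene, the 3 groups were fitted together with limma over 29410 genes, and calls required both a 2-fold difference or more and a p below 0.05 after Benjamini-Hochberg adjustment over these genes. Precision is limited by the number of arrays: with 3 a group, the smallest p of a two-sided exact permutation test is 0.10.

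Ccnd1 rose at 1 and 3 dpi, Cdkn1c rose between 1 and 3 dpi, and the other members stayed under the 2-fold limit on their brightest probes. At 1 dpi, 1 of 10 (Ccnd1) was called higher than in Ctrl, beside 11.7% of all genes, and 0 were called lower by limma, beside 3.08% of all genes. At 3 dpi, 2 of 10 (Ccnd1 and Cdkn1c) were called higher, beside 7.04% of all genes, and 0 lower, beside 1.79%. Between 3 and 1 dpi, 1 of 10 (Cdkn1c) was called higher at 3 dpi, beside 4.16% of all genes, and 0 lower, beside 4.48%. At an unadjusted p under 0.05 in limma, with no minimum fold change, 2, 1 and 2 of the 10 genes were lower in these 3 comparisons, and 5, 6 and 4 were higher. At that threshold 23.8%, 18.6% and 28.1% of all genes were lower, and 37.9%, 23% and 24% were higher. The methods' t-test after Benjamini-Hochberg adjustment placed 2, 1 and 2 of the 10 genes lower and 4, 4 and 5 higher, beside 12597, 7083 and 14160 of all 29410 genes in either direction. The median log2 fold change of the 10 genes was 0.27 for 1 dpi against Ctrl, 0.45 for 3 dpi against Ctrl and 0.19 for 3 against 1 dpi, beside 0.23, 0.12 and -0.08 for all genes. Both comparisons with Ctrl share the same 3 Ctrl arrays. Scaling to the array median in place of the 75th percentile moved the median of all genes to -0.10, -0.03 and 0.09, and changes of about this size have no settled direction. Of the genes called at 1 dpi 79.2% were higher, against 45% after this scaling, and the shares were 48.2% and 68.2% between 3 and 1 dpi.

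**Figure D1:**
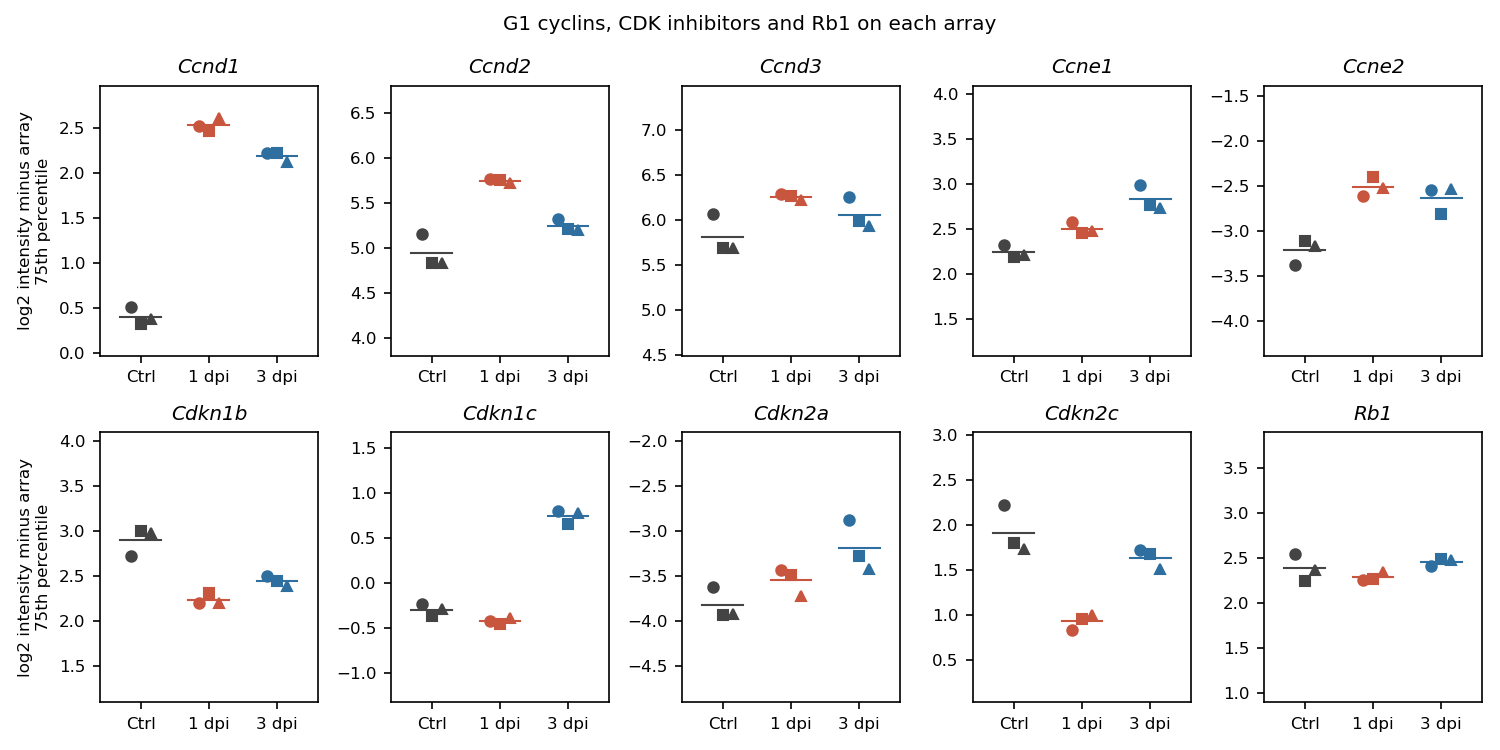
Log2 intensity minus the array's 75th percentile (y axis, each panel spanning the same range) of the 10 genes in Ctrl, 1 dpi and 3 dpi (x axis), with circles, squares and triangles for replicates 1, 2 and 3 and lines for group means. Ccnd1 was between 0.32 and 0.51 in Ctrl and above 2 on all arrays post IR, and Cdkn1c was above 0 only at 3 dpi.

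Cyclin D1, which couples growth factor signals to CDK4 and CDK6, showed the largest change of the 10 genes against Ctrl. The Ccnd1 probe (chr7:152116202-152116261 on mm9, minus strand) was at 0.51, 0.32 and 0.37 on the Ctrl arrays. It was at 2.52, 2.47 and 2.61 at 1 dpi, and at 2.22, 2.22 and 2.12 at 3 dpi. All 6 arrays of irradiated mice lay above all 3 Ctrl arrays, and the 1 dpi arrays lay above the 3 dpi arrays. The log2 fold change against Ctrl was 2.13 at 1 dpi (SE 0.07, adjusted p = 1.1e-06 from limma), which is 4.38-fold, and 1.79 at 3 dpi (SE 0.07, adjusted p = 1.7e-06), which is 3.46-fold. Relative to the median of all genes these changes were 1.90 and 1.67. From 1 to 3 dpi Ccnd1 was lower by 0.34 on the log2 scale (SE 0.07, adjusted p = 0.0074), which was below 2-fold and not called, and after scaling to the array median this difference was -0.17. With the slide as a block, in which Ctrl replicate 1 carries no weight as the only array of its slide, the changes against Ctrl were 2.18 and 1.84.

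Ccnd2, a D-type cyclin with a known role in haematopoietic cells, has 3 probes along its transcript. The brightest (chr6:127080268-127080327) was at 5.16, 4.83 and 4.83 in Ctrl, at 5.77, 5.75 and 5.72 at 1 dpi, and at 5.32, 5.21 and 5.20 at 3 dpi. All 1 dpi arrays lay above all Ctrl and 3 dpi arrays, and the 3 dpi arrays lay above the Ctrl arrays by a narrow margin. The difference from Ctrl was 0.80 at 1 dpi (SE 0.10, 95% interval 0.58 to 1.03, adjusted p = 0.00036), or 1.75-fold, which did not reach 2-fold. At 3 dpi the difference was 0.30 (95% interval 0.07 to 0.53, adjusted p = 0.05). Scaling to the array median made these differences 0.48 and 0.15. The most 5′ of the probes (chr6:127098696-127098755, minus strand) was taken as coding from its letters, with no annotation of mm9 at hand to place it. It is shown in lower case throughout, to let the part of the transcript that it reads be identified:
Ccnd2 coding probe: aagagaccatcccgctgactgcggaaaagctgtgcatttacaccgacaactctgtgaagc
This probe was at 0.49 at 1 dpi and 0.15 at 3 dpi relative to Ctrl, the same order as the brightest probe. The most 3′ probe (chr6:127075412-127075471), which the array assigns to a predicted transcript variant, had the opposite order, with 0.13 at 1 dpi and 0.53 at 3 dpi (SE 0.06 for both, adjusted p = 0.092 and 0.00035 over all probes). Between 3 and 1 dpi the brightest probe was at -0.50 and the most 3′ probe at 0.40, so the direction of Ccnd2 between the time points depended on the probe.

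Ccnd3, the third D-type cyclin, also had probes that differed in direction. The brightest (chr17:47736572-47736631, plus strand) ranged from 5.68 to 6.06 in Ctrl, from 6.22 to 6.29 at 1 dpi and from 5.93 to 6.25 at 3 dpi. The 1 dpi arrays did not overlap with Ctrl and the 3 dpi arrays did. Its difference from Ctrl was 0.45 at 1 dpi (adjusted p = 0.017, SE 0.12) and 0.25 at 3 dpi (95% interval -0.04 to 0.54, adjusted p = 0.17). Single arrays moved the latter, to 0.15 without 3 dpi replicate 1 and to 0.37 without Ctrl replicate 1. The difference at 1 dpi rested on the scaling, since it was 0.13 with the array median, 0.06 with quantile normalization and 0.01 with normexp and quantile normalization. A probe that overlaps it (chr17:47736579-47736638) was at 0.50 and 0.39. The remaining probe (chr17:47732637-47732696), assigned to an Ensembl transcript, was at -0.48 and -0.59 (adjusted p = 0.0026 and 0.0016 over all probes), and on this probe all irradiated arrays lay below all Ctrl arrays. None of these differences reached 2-fold.

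**Figure D2:**
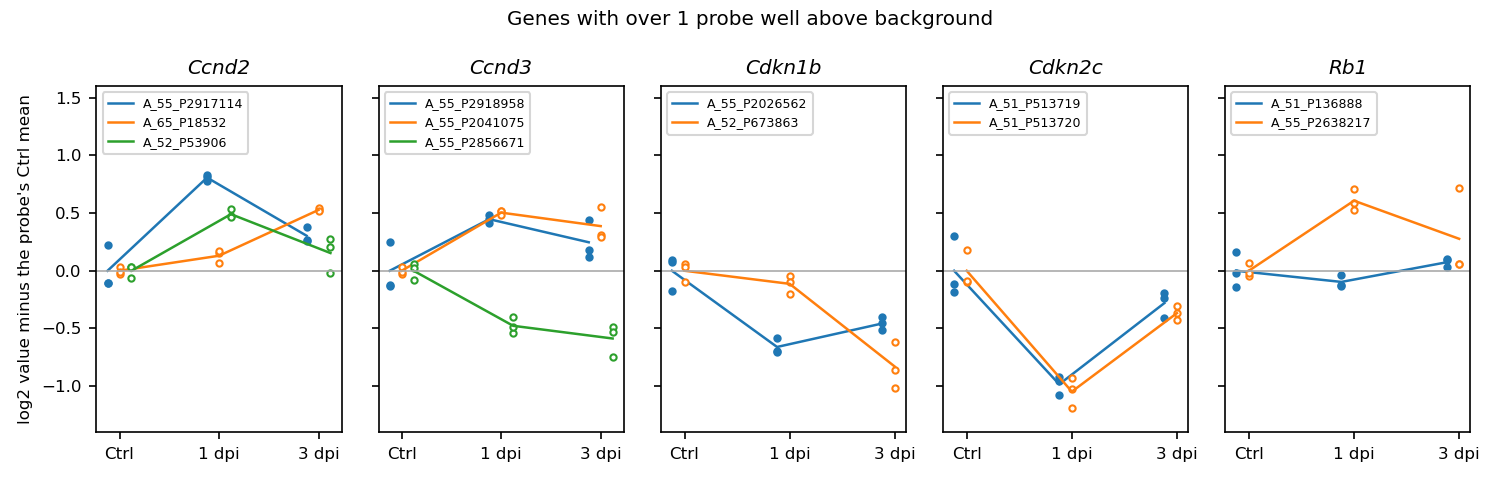
Log2 value of each probe minus its own mean in Ctrl (y axis) in the 3 groups (x axis), for the 5 genes with more than 1 probe well above background, with points for arrays (filled for the brightest probe) and lines joining group means. The probes of Cdkn2c run together, while probes of Ccnd2, Ccnd3, Cdkn1b and Rb1 part at 1 or 3 dpi.

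E-type cyclins, the partners of CDK2 at the entry into S phase, did not reach 2-fold in any of the 3 comparisons. Ccne1 (one probe, assigned to chr7:38882937-38882960, a stretch shorter than the probe) was at 2.32, 2.18 and 2.21 in Ctrl. It was at 2.57, 2.45 and 2.47 at 1 dpi and at 2.99, 2.76 and 2.73 at 3 dpi. The 3 groups did not overlap and followed the order Ctrl, 1 dpi, 3 dpi. Its log2 difference at 1 dpi was 0.26 (SE 0.09, adjusted p = 0.035), and median scaling of the arrays turned it to -0.06. At 3 dpi it was 0.59 (SE 0.09, adjusted p = 0.0015), or 1.51-fold, and with median scaling 0.44. Ccne2 (chr4:11122185-11122244) ranged from -3.37 to -3.11 in Ctrl, from -2.61 to -2.40 at 1 dpi and from -2.81 to -2.53 at 3 dpi. Both irradiated groups lay above Ctrl and overlapped with each other, with log2 differences from Ctrl of 0.71 for 1 dpi (SE 0.11, adjusted p = 0.0012) and 0.59 for 3 dpi (SE 0.11, adjusted p = 0.0047). The difference of Ccne2 at 1 dpi was smaller under the other scalings, at 0.42 with quantile normalization, 0.38 with the array median and 0.26 with normexp and quantile normalization.

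Of the CIP/KIP inhibitors, Cdkn1c rose at 3 dpi and Cdkn1b was not called by limma with the 2-fold limit. Cdkn1c, whose product p57 is known for holding haematopoietic stem cells in quiescence, was measured by 1 probe (chr7:150644297-150644356, minus strand). It was at -0.24, -0.37 and -0.29 in Ctrl, at -0.42, -0.46 and -0.39 at 1 dpi, and at 0.80, 0.65 and 0.77 at 3 dpi. The 3 dpi arrays lay above all other arrays by about 1 on the log2 scale, and the 1 dpi arrays lay just below Ctrl. The change at 3 dpi was 1.04 (SE 0.07, adjusted p = 1.7e-05), or 2.06-fold, against -0.12 at 1 dpi (95% interval -0.28 to 0.03, adjusted p = 0.15). Scaling to the array median made the value at 1 dpi -0.45, with an adjusted p of 0.026 in a range of 0.026 to 0.32 over its 22 alternatives. The difference between the time points was itself called, at 1.16 (SE 0.07, adjusted p = 2.2e-05), or 2.24-fold. The change at 3 dpi lay close to the 2-fold limit. It was 0.89 after scaling to the array median and 0.97 with normexp background correction and quantile normalization together, and under both it was no longer called. It was 1.07 with the slide as a block.

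Cdkn1b encodes p27, which binds cyclin E-CDK2. Its brightest probe (chr6:134875424-134875483, plus strand) was at 2.73, 3.00 and 2.98 in Ctrl. It was at 2.21, 2.32 and 2.20 at 1 dpi and at 2.50, 2.45 and 2.39 at 3 dpi. No irradiated array reached the lowest Ctrl array, and the 1 dpi arrays lay below the 3 dpi arrays. The differences from Ctrl were -0.66 at 1 dpi (SE 0.09, 95% interval -0.86 to -0.46, adjusted p = 0.00056) and -0.45 at 3 dpi (SE 0.09, adjusted p = 0.0055), and the former was -0.99 after scaling to the array median. The methods' t-test after adjustment placed this probe lower than Ctrl at 1 and 3 dpi (adjusted p = 0.01 and 0.038). It also placed the probe higher at 3 dpi than at 1 dpi, at 0.21 (adjusted p = 0.033). A second probe further 5′ (chr6:134873606-134873665) overlapped with Ctrl at 1 dpi, at -0.12 (adjusted p = 0.38 over all probes), and was at -0.83 at 3 dpi (adjusted p = 0.00079). Both probes were lower than Ctrl at 3 dpi, and they differed in which time point was lower.

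Among the INK4 inhibitors, Cdkn2c, which encodes p18, was the member furthest below Ctrl at 1 dpi, at a fold change just short of the limit on its brightest probe. The brightest probe (chr4:109333779-109333838, minus strand) was at 2.22, 1.80 and 1.73 in Ctrl, at 0.84, 0.96 and 1.00 at 1 dpi, and at 1.72, 1.68 and 1.51 at 3 dpi. The 1 dpi arrays lay far below the other groups, and the 3 dpi arrays lay just under the lowest Ctrl array. The difference at 1 dpi was -0.98 (SE 0.14, 95% interval -1.30 to -0.67, adjusted p = 0.00068), or 1.98-fold. A second probe that overlaps this one (chr4:109333757-109333818) was at -1.05 (SE 0.10, adjusted p = 0.00013 over all probes), or 2.06-fold, and was called lower. At 3 dpi the difference from Ctrl was -0.28 (95% interval -0.59 to 0.03, adjusted p = 0.16), or -0.13 without Ctrl replicate 1, and the second probe was at -0.37 (adjusted p = 0.028 over all probes). Between 3 and 1 dpi the brightest probe was at 0.70 (SE 0.14, adjusted p = 0.0044). Cdkn2c was called lower at 1 dpi after scaling to the array median, at -1.31, on the deposited log2 values, at -1.01, and without Ctrl replicate 2, Ctrl replicate 3 or 1 dpi replicate 3, at -1.04, -1.08 and -1.02. It stayed short of the limit without Ctrl replicate 1, which had the highest Ctrl value, and with the slide as a block, at -0.83 in both, and with quantile normalization, at -0.94.

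Cdkn2a encodes p16Ink4a and p19Arf from different transcripts of 1 gene. The array assigns both of its probes to the same RefSeq transcript, and with no annotation of mm9 at hand, which of the transcripts they read was not tested. Its brighter probe (chr4:88920405-88920464) was well above background on all 9 arrays and ranged from -3.93 to -3.62 in Ctrl, from -3.72 to -3.43 at 1 dpi and from -3.42 to -2.88 at 3 dpi. The 3 dpi arrays lay above Ctrl, while the 1 dpi arrays overlapped with Ctrl. The difference was 0.28 at 1 dpi (95% interval -0.10 to 0.65, adjusted p = 0.17), with the opposite sign, at -0.05, after scaling to the array median, and 0.63 at 3 dpi (SE 0.16, adjusted p = 0.019). At 3 dpi it did not pass the adjusted threshold under any other scaling run, with 0.48 for quantile normalization, 0.48 for the array median and 0.28 for normexp and quantile normalization (adjusted p = 0.12, 0.13 and 0.073). Over its 21 alternatives the adjusted p, or the unadjusted p of the t-test, was between 0.005 and 0.13. For the other probe (chr4:88920545-88920604), with no group well above background, no fold is given.

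Rb1, the target of the G1 kinases, was not called by limma with the 2-fold limit in any comparison. Between 3 and 1 dpi its brightest probe was at 0.17 (adjusted p = 0.15 from limma). The methods' t-test after adjustment placed Rb1 higher at 3 dpi (adjusted p = 0.027), and the other Rb1 probe was at -0.33. Its brightest probe (chr14:73595408-73595467, minus strand) ranged from 2.25 to 2.55 in Ctrl, from 2.26 to 2.35 at 1 dpi and from 2.42 to 2.49 at 3 dpi. Both irradiated groups overlapped with Ctrl, with differences of -0.10 (95% interval -0.29 to 0.10) and 0.07 (95% interval -0.13 to 0.27). Without Ctrl replicate 1 they were -0.01 and 0.15, and without Ctrl replicate 2 they were -0.16 and 0.00. After scaling to the array median the differences were -0.42 and -0.08, so that the value at 1 dpi lay outside its interval. A second probe (chr14:73596841-73596900) was at 0.52, 0.41 and 0.43 in Ctrl, at 1.16, 1.04 and 0.98 at 1 dpi, and at 1.17, 0.51 and 0.51 at 3 dpi. On this probe the 1 dpi arrays lay above Ctrl by 0.61 (SE 0.17, adjusted p = 0.018 over all probes), and 3 dpi replicate 1 stood apart from the other 3 dpi arrays.

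**Figure D3:**
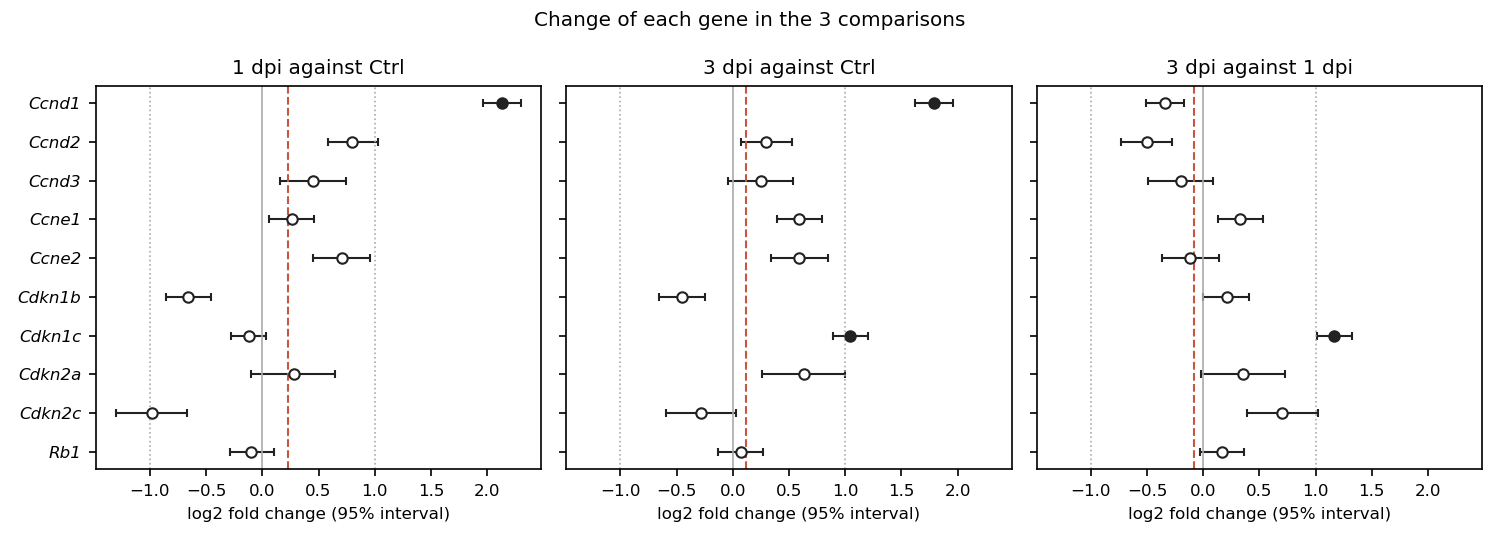
Log2 fold change of each gene (x axis) in the 3 comparisons, with its 95% interval from limma, filled points for calls, dotted lines at 2-fold and a dashed line at the median of all 29410 genes. Ccnd1 stands clear of the 2-fold line at 1 and 3 dpi, Cdkn1c lies at it at 3 dpi, and Cdkn2c lies at it on the lower side at 1 dpi.

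The genes that act with these 10 were described through lists. Of the 3 other CDK inhibitors (Cdkn1a, Cdkn2b and Cdkn2d), 1 was called higher at 1 dpi and at 3 dpi, beside 11.7% and 7.04% of all genes. The gene called was Cdkn1a, which encodes p21 and is a well-known target of p53. Cdkn1a was at 1.35, 1.08 and 1.07 in Ctrl, at 5.04, 5.00 and 5.00 at 1 dpi, and at 3.83, 3.57 and 3.54 at 3 dpi. The groups did not overlap, and the log2 fold change was 3.85 at 1 dpi (adjusted p = 4.4e-07, SE 0.11) and 2.48 at 3 dpi (adjusted p = 2.2e-06), with its 3 probes between 2.51 and 5.68 and between 1.31 and 4.26. From 1 to 3 dpi Cdkn1a fell by 1.36 on the log2 scale (adjusted p = 8.4e-05). At an unadjusted p under 0.05 in limma, 1 of the 3 was higher and 2 lower at 1 dpi, beside 37.9% and 23.8% of all genes. At 3 dpi 2 were higher, and between 3 and 1 dpi 2 were higher and 1 lower. The methods' t-test after adjustment gave the same counts. Cdkn2b was at -0.43, 0.52 and 0.95 in these 3 comparisons, and Cdkn2d at -0.24, 0.10 and 0.34.

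None of the 8 G1 kinases and their activators was called in any comparison by limma. At an unadjusted p under 0.05, 5 of the 8 were lower at 1 dpi and 0 higher, beside 23.8% and 37.9% of all genes. The methods' t-test after Benjamini-Hochberg adjustment also placed 5 lower. At 3 dpi 1 was higher and 1 lower in limma without adjustment and 1 lower by the t-test, and between 3 and 1 dpi both gave 4 higher and 1 lower. In limma without adjustment 23% of all genes were higher and 18.6% lower at 3 dpi, and 24% and 28.1% between 3 and 1 dpi. The median of the list was -0.34 at 1 dpi and -0.05 at 3 dpi, beside 0.23 and 0.12 for all genes. Cdk2, the partner of the E-type cyclins, was at 1.34, 1.19 and 1.15 in Ctrl, at 0.13, 0.27 and 0.43 at 1 dpi, and at 0.84, 1.12 and 1.04 at 3 dpi. Its 1 dpi arrays lay below all others, and the difference of -0.95 (SE 0.11, adjusted p = 0.00028) fell just short of 2-fold with this scaling. Cdk4 was at -0.04 and -0.07 against Ctrl at 1 and 3 dpi (SE 0.06 for both), and Cdk6 at -0.41 and -0.64 (SE 0.06, adjusted p = 0.0013 and 0.0002). The 3 probes of Cdk6 ran from -0.41 to 0.24 at 1 dpi and from -0.75 to -0.56 at 3 dpi, and the 4 of Cdk4 from -0.37 to 0.11 and from -0.20 to 0.12.

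Of the 12 pocket proteins and E2F factors, 2 were called lower at 1 dpi (Rbl1 and E2f5), beside 3.08% of all genes. At 3 dpi 0 were called, and Rbl1 and E2f5 were called higher at 3 dpi than at 1 dpi, beside 4.16% of all genes. At an unadjusted p under 0.05 in limma, 8 of the 12 were lower at 1 dpi, beside 23.8% of all genes. At 3 dpi 1 was higher and 2 were lower, beside 23% and 18.6%. Between 3 and 1 dpi 7 were higher and 2 lower, beside 24% and 28.1%. The methods' t-test after adjustment placed 7 lower, 1 lower and 7 higher in these comparisons. The median of the list was -0.42 at 1 dpi, -0.05 at 3 dpi and 0.28 between them, beside 0.23, 0.12 and -0.08 for all genes. Rbl1, which encodes p107, a relative of the retinoblastoma protein, was at 2.20, 1.84 and 1.88 in Ctrl and at 0.68, 0.78 and 0.93 at 1 dpi. At 3 dpi it was at 1.56, 1.93 and 1.92, which overlaps with Ctrl. It fell by 1.18 on the log2 scale at 1 dpi (SE 0.14, adjusted p = 0.00034), with its 3 probes between -1.18 and 0.40. E2f5 was at -1.10 at 1 dpi (SE 0.23, adjusted p = 0.0049). E2f1 was at 0.15 and -0.09 against Ctrl at 1 and 3 dpi, and Rbl2 at -0.01 and 0.12, and none of these differences passed the test.

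Among 14 genes of turnover and upstream control, 1 was called higher at 1 dpi and 2 lower, beside 11.7% and 3.08% of all genes. The medians of the list were -0.34 at 1 dpi, -0.18 at 3 dpi and 0.01 between them, beside 0.23, 0.12 and -0.08 for all genes. At an unadjusted p under 0.05 in limma 8 were lower and 1 higher at 1 dpi, 7 lower and 3 higher at 3 dpi, and 4 lower and 5 higher between them. At that threshold 23.8%, 18.6% and 28.1% of all genes were lower in these comparisons, and 37.9%, 23% and 24% higher. The methods' t-test after adjustment gave 8 lower and 1 higher, 4 lower and 1 higher, and 3 lower and 3 higher. The gene called higher at 1 dpi was Mdm2, whose product marks p53 for degradation, at 1.65 (SE 0.06, adjusted p = 1.9e-06). Those called lower were Myc, a growth-promoting transcription factor, at -1.44 (SE 0.09, adjusted p = 1.3e-05, or -0.28 on its other probe), and Skp1a, at -1.22 on a dim probe that was well above background on 2 of the 3 arrays at 1 dpi. At 3 dpi 1 was called lower, Gfi1b, a transcription factor of the megakaryocyte and erythroid lineages, at -1.18 (SE 0.09, adjusted p = 3.4e-05). Between 3 and 1 dpi Skp2, which directs p27 to degradation and was named after its values were seen, was called higher, at 1.07 (SE 0.09, adjusted p = 0.0001), and Mdm2 lower, at -1.07 (SE 0.06, adjusted p = 2.8e-05). Among all genes 1.79% were called lower at 3 dpi, and 4.16% higher and 4.48% lower between 3 and 1 dpi. Of the 19 E2F-driven S-phase genes and the 12 mitotic genes, 0 were called by limma in any of the 3 comparisons. The S-phase list had medians of -0.08 at 1 dpi and 0.10 at 3 dpi, with 8 genes lower and 2 higher at an unadjusted p under 0.05 at 1 dpi and 1 lower and 7 higher at 3 dpi. These counts of 19 genes stand beside 23.8% of all genes lower and 37.9% higher at 1 dpi, and 18.6% lower and 23% higher at 3 dpi. The mitotic list had medians of -0.28 and 0.09, with 7 genes lower without adjustment at 1 dpi and 2 higher at 3 dpi, beside 23.8% and 23% of all genes. Between 3 and 1 dpi the medians of these lists were 0.29 and 0.46, beside -0.08 for all genes, with 11 S-phase and 10 mitotic genes higher and 1 S-phase gene lower without adjustment, beside 24% and 28.1% of all genes. By the methods' t-test after adjustment, 8 S-phase and 6 mitotic genes were lower and 2 S-phase genes higher at 1 dpi, 5 S-phase genes were higher at 3 dpi, and 10 genes of each list were higher and 1 S-phase gene lower between 3 and 1 dpi.

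Among 24006 other genes well above background on all 9 arrays, the 5 most like Ccnd1 by Pearson correlation over the 9 arrays were LOC102639543 (0.9986), NAP111439-1 (0.9985), Gdf15 (0.9983), Zmat3 (0.9982) and Tubb6 (0.9979). Their log2 fold changes against Ctrl were between 1.37 and 4.34 at 1 dpi and between 1.19 and 3.55 at 3 dpi. No member was called lower against Ctrl on its brightest probe by limma with the 2-fold limit, so the same was described for Cdkn1c, which was chosen after its values were seen. The genes most like it were Cmbl (0.9961), Pdgfc (0.9955), Slco2b1 (0.9944), Il18 (0.9938) and Igfbp5 (0.9937), which were between -0.34 and -0.10 at 1 dpi and between 1.43 and 2.26 at 3 dpi. The 9 points fall into 3 groups, so these values describe the order of the groups more than the arrays within them.

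Markers of other bone marrow cells moved between the groups in which Ccnd1 and Cdkn1c were called. Of 10 megakaryocyte markers, with Pf4 the brightest, 0 were called by limma in any comparison, and an unadjusted p under 0.05 was reached by 2 higher and 3 lower genes for 1 dpi, by 3 higher genes for 3 dpi, and by 5 higher genes and 1 lower gene between them. After adjustment the methods' t-test gave 2 higher and 1 lower for 1 dpi, 3 higher for 3 dpi, and 5 higher and 1 lower between them. Their summed intensity was between 7.28 and 7.44 in Ctrl, between 7.29 and 7.43 at 1 dpi and between 7.50 and 7.54 at 3 dpi on the log2 scale, and all 10 were well above background on at least 1 array.

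Of 10 stromal markers, with Cxcl12 the brightest, 7 were called higher at 1 dpi and 6 at 3 dpi, and 4 were called higher at 3 dpi than at 1 dpi. Between 3 and 1 dpi, 3 adipocyte, 6 macrophage, 5 erythroid and 3 B cell and precursor markers were also called higher. So were 2 T and NK, 1 endothelial and 1 dendritic marker, and 3 erythroid markers were called lower. The summed level of the stromal markers was 3.88, 3.81 and 3.89 in Ctrl, 6.15, 5.95 and 6.07 at 1 dpi, and 7.05, 6.91 and 7.02 at 3 dpi. Of 6 adipocyte markers, with Fabp4 the brightest, 3 and 5 were called higher, and their sum was 2.85, 2.58 and 2.67 in Ctrl, 4.31, 4.29 and 4.27 at 1 dpi, and 5.65, 5.57 and 5.71 at 3 dpi. Of 10 macrophage markers, with Csf1r the brightest, 4 were called higher at 1 dpi and 8 at 3 dpi, and their sum was 6.44, 6.27 and 6.22 in Ctrl, 6.80, 6.72 and 6.79 at 1 dpi, and 7.67, 7.64 and 7.61 at 3 dpi. The sums of these 3 lists and of the endothelial and megakaryocyte lists were highest at 3 dpi, as was Cdkn1c. The sums of the neutrophil, T and NK, dendritic and erythroid lists were highest at 1 dpi, as was Ccnd1, whose difference between 1 and 3 dpi was not called. Ccnd1 lay above all Ctrl arrays at both time points, as did the stromal, adipocyte, macrophage, endothelial and T and NK sums. A sum is weighted to the brightest members of its list. Against the erythroid sum, 7 of 10 markers were called lower at 1 dpi (list median -1.70), while Hba-a1 and Hbb-b1 were called higher. The median of the T and NK list was 0.54 at 1 dpi and 0.59 at 3 dpi. Of 8 endothelial markers (Egfl7 the brightest) 2 and 4 were called higher, with sums from 3.48 to 3.57 in Ctrl, from 4.05 to 4.20 at 1 dpi and from 4.24 to 4.47 at 3 dpi.

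Of 10 B cell and precursor markers, with Cd79b the brightest, 9 were called lower at 1 dpi and 9 at 3 dpi, and their sum was 5.40, 5.30 and 5.35 in Ctrl and between 2.99 and 3.04 on the irradiated arrays. Of 10 erythroid markers, with Hba-a1 the brightest, 7 fell and 2 rose at 1 dpi, and 8 fell at 3 dpi. Their sum was between 6.97 and 7.27 in Ctrl, between 8.13 and 8.43 at 1 dpi and between 5.58 and 5.69 at 3 dpi. For 10 neutrophil markers (Mpo the brightest) 1 was called higher at 1 dpi, and the sum was between 10.51 and 10.59 in Ctrl, between 11.20 and 11.31 at 1 dpi and between 10.51 and 10.68 at 3 dpi. Of 8 T and NK markers (Nkg7 the brightest) 1 and 3 were called higher, with sums from 5.41 to 5.47 in Ctrl, from 5.83 to 5.92 at 1 dpi and from 5.50 to 5.68 at 3 dpi. Of 6 dendritic markers (Siglech the brightest) Xcr1 was not well above background on any array, 1 was called higher and 2 lower at 1 dpi, and 1 lower at 3 dpi. Their sum was 4.58 on Ctrl replicate 1 and 5.49 and 5.53 on the other Ctrl arrays, between 6.02 and 6.16 at 1 dpi and between 5.12 and 5.32 at 3 dpi. Every defining marker of the other lists was well above background on at least 1 array. The part of these cells in the changes of Ccnd1, Cdkn1c and the other members was not tested.

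**Figure D4:**
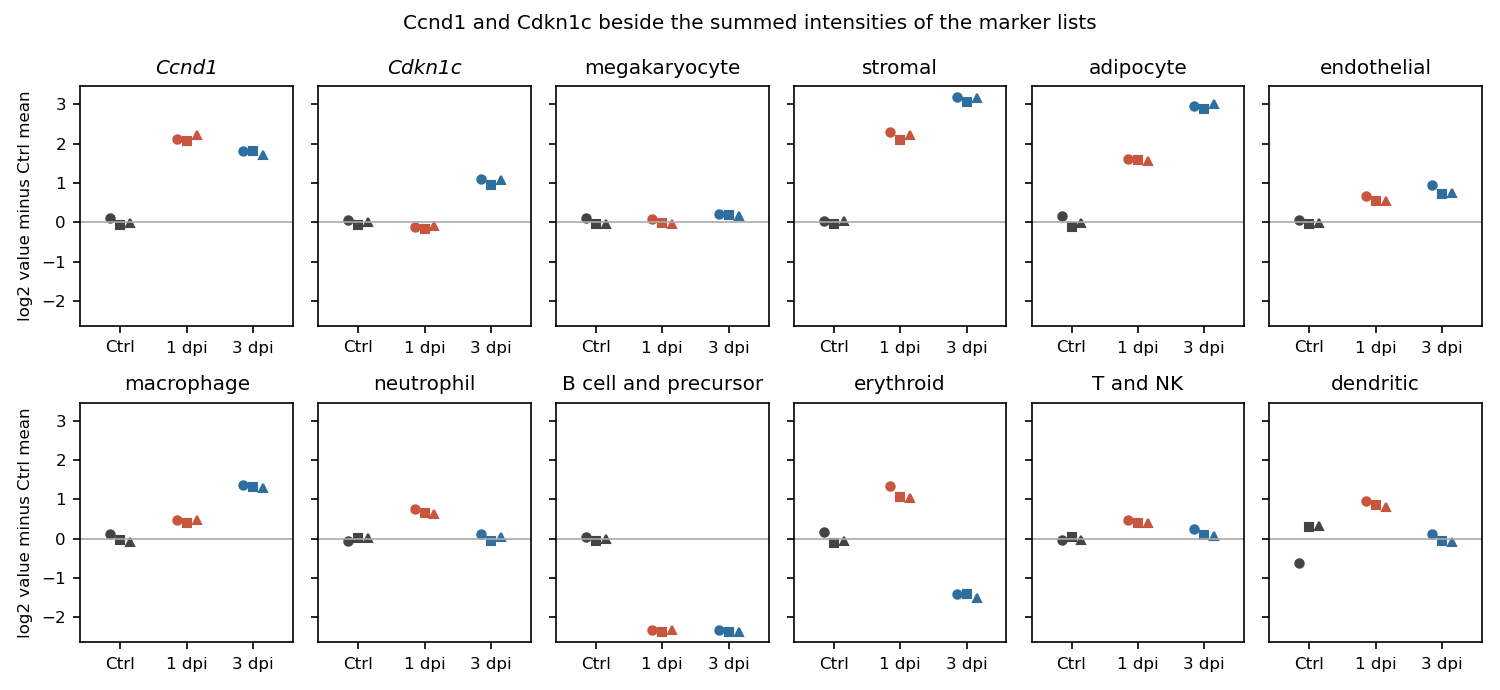
Log2 level minus the Ctrl mean (y axis) in the 3 groups (x axis) for Ccnd1, Cdkn1c and the summed intensity of each marker list, with circles, squares and triangles for replicates 1, 2 and 3. The stromal, adipocyte and macrophage sums are highest at 3 dpi, the B cell sum is lower at both time points, and the megakaryocyte sum stays between 7.28 and 7.54 before the Ctrl mean is subtracted.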

How the data were processed

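The authors deposited the spot intensities of 9 Agilent 1-colour arrays (design with 60-mer probes on mm9) as made by Agilent Feature Extraction 10.7.1.1, background-subtracted but not scaled between arrays. The methods describe an Affymetrix chip, so its labelling and scanning steps are not given as the steps used here. A log2 matrix by gene name was deposited too, with column medians between 5.79 and 5.87, whose making is not stated. Of its 27275 rows, 27050 matched 1 probe within 0.1 after quantile normalization. For Ccnd2, Ccnd3, Cdkn1b, Cdkn2a, Cdkn2c and Rb1 it holds a probe other than the brightest, and for Cdkn2a the one not well above background. Of the value columns 0 were left unused.

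Control and outlier spots were left out, which removed 20 of 56605 probes, and no spot was saturated. Of the probes, 32984 were named through RefSeq accessions (GRCm38.p6) and 23601 kept the array's name. Log2 intensities were scaled by subtracting each array's 75th percentile. It was 9.52, 10.12 and 10.15 in Ctrl, between 8.85 and 8.96 at 1 dpi and between 9.85 and 10.04 at 3 dpi. All 1 dpi arrays thus had a lower value than all other arrays, and the cause was not tested. The filter kept 44300 probes, those with all 3 arrays of some group well above background, and the brightest represented its gene. The fit used limma 3.58.1 (R 4.3.3, data.table version 1.17.8) with 1 mean per group. Single probes were fitted in the same way over all kept probes. Calls were tested on simulated data. Plots were made in Python 3.11.15 (matplotlib 3.10.9).

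The members and lists were chosen with earlier results of these data known. Named genes were the 10 members, up to 4 called genes of each list with the largest change against Ctrl, Cdk2, Cdk4, Cdk6, Cdkn1a, E2f1, Rbl1 and Rbl2, the 5 genes most like a called member, and the brightest marker of each list. Alternatives changed the normalization, the background correction (normexp, run with quantile normalization), the source of the values, the dim-probe filter, the probe of a gene, the call rule, the test (the methods' t-test), a replicate block, the slide and the arrays used.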

Additional observations from a re-analysis of the deposited data

Results flagged for a closer look

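Cdkn1c differed between the time points. Its log2 fold change against Ctrl was -0.12 at 1 dpi and 1.04 at 3 dpi, and the difference of 1.16 passed limma's test (adjusted p = 2.2e-05), with all 3 arrays at 3 dpi above all 3 at 1 dpi. Over 22 alternatives this difference was between 1.08 and 1.34, with p between 1.3e-06 and 0.001. Both effects share the Ctrl arrays. In the same comparison limma called 4 of 10 stromal, 3 of 6 adipocyte and 6 of 10 macrophage markers higher and 0 lower. Of all genes, 4.16% were called higher and 4.48% lower. Lepr, Pdgfra and Plin1 of these 3 lists were lower without a call, at -0.94, -0.43 and -0.68. Of 10 erythroid markers 5 were called higher and 3 lower. Also called higher were 3 of 10 B cell and precursor, 2 of 8 T and NK, 1 of 8 endothelial and 1 of 5 tested dendritic markers. No megakaryocyte or neutrophil marker was called. The part of these and other marker lists in the difference of Cdkn1c was not tested.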

How the results depend on the processing

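Among the values of single members under alternatives, 584 kept their direction and side of the threshold, 51 passed it, 2 no longer passed it and 20 changed sign, none of the latter called in the main analysis or under the alternative. The calls of Ccnd1 at 1 and 3 dpi and of Cdkn1c between 3 and 1 dpi held under all alternatives run. Cdkn1c at 3 dpi was not called after median scaling (0.89) and with normexp and quantile normalization together (0.97).

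The count of all genes at 1 dpi (4361, 79.2% higher) was 1660 with normexp and quantile normalization together (3453 with quantile normalization alone), 16275 with no minimum fold change, and 15559 with the methods' t-test at its threshold or 12597 after adjustment. At 3 dpi (2596, 79.7% higher) these counts were 1142, 9391, 10518 and 7083, and between 3 and 1 dpi (2542, 48.2% higher) 1079, 13016, 16718 and 14160. Their causes were not tested, apart from the fold limit. The share called higher was 56.2% with quantile normalization and 45% with median scaling at 1 dpi, 71.5% and 70% at 3 dpi, and 62.9% and 68.2% between them, where it was 34.5% with no filter on dim probes (3626 called) and 39.6% with only probes well above background on all arrays (1730 called). Members called at 1 dpi numbered 2 with median scaling, the deposited table or the median over probes (Cdkn2c in each), 7 with no minimum fold change, and 8 or 6 with the methods' t-test. At 3 dpi they numbered 1 with median scaling or normexp with quantile normalization, 6 with no minimum fold change, and 6 or 5 with the methods' t-test, and between 3 and 1 dpi 5, 7 and 7. With each array left out in turn, members called numbered 1 to 2 at 1 dpi, 2 at 3 dpi and 1 between them, and all genes 3543 to 5247, 2369 to 2790 and 2231 to 2810.

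Signs changed at 1 dpi for Cdkn2a with quantile normalization (-0.08), median scaling (-0.05) and normexp with quantile normalization (-0.04), Ccne1 with median scaling (-0.06), Ccnd3 on the deposited table (-0.43), and Rb1 on that table (0.65) and with the median over probes (0.26). At 3 dpi they changed for Rb1 with median scaling (-0.08) and Ccnd3 on the deposited table (-0.59). Between 3 and 1 dpi they changed for Ccnd3 with quantile normalization (0.11) and normexp with it (0.13), for Ccne2 with quantile normalization (0.05), normexp with it (0.06), median scaling (0.06) and the deposited table (0.05), for Cdkn1b on the deposited table (-0.58) and with the median over probes (-0.25), for Rb1 likewise (-0.38 and -0.08), and for Ccnd2 with the median over probes (0.40). On the deposited table Ccnd3, Cdkn1b and Rb1 come from other probes than the brightest and Ccne2 from the same probe. The cause of the changes was not tested.

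The labels do not say whether replicate numbers pair the arrays, and the values showed no clear sign of it. Deviations of same-numbered arrays correlated between -0.11 and 0.13, and with a replicate block 4186, 2505 and 2455 genes and 1, 2 and 1 members were called. The slide as a block gave 3505, 2371 and 2747 genes. Scaling also moved values that kept their sign by over 1.5 times, among them Ccne2 at 3 dpi (0.31 with normexp and quantile normalization) and, with median scaling, Ccnd3 at 3 dpi (0.10), Rb1 at 1 dpi (-0.42) and Cdkn1c at 1 dpi (-0.45). Signal over background limits Cdkn2a, with 1 probe not well above it on any array.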
